A study of Mus musculus with 6 samples.

Results

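Lysosomal cathepsins were followed across 6 arrays of sorted mouse pro-B cells, as 8 named genes (Ctsa, Ctsb, Ctsc, Ctsd, Ctsh, Ctsl, Ctss and Ctsz) out of 17097 genes measured. The genes were chosen by name. Together they were read by 17 of the 45037 probe sets, each a group of short probes against 1 transcript region and each annotated with that gene symbol alone. Each gene is represented by whichever of its probe sets was brightest on average, and its other probe sets are described beside it. Ctsa and Ctsl had 2 probe sets each, Ctsc and Ctsz 3 each, Ctsb 4, and Ctsd, Ctsh and Ctss 1 each.

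The study compared 3 arrays of HDAC7-deficient pro-B cells, taken from mice carrying a conditional Hdac7 mutation, with 3 arrays of wild-type pro-B cells, and called the arrays of each genotype biological triplicates. Pro-B cells, the B lineage precursors that rearrange their heavy chain genes, were sorted from both genotypes as B220+CD43+IgM- cells. The question was whether HDAC7, a class IIa histone deacetylase, keeps the genes of foreign lineages off in early B cells. The Cre driver, the deleted exons, and the age, sex and background strain of the mice are not stated in the labels. Nothing states whether cells of several mice were pooled for an array. Values are log2 expression values as the authors deposited them, so a difference of 1 is a 2-fold difference. Changes are HDAC7 deficient minus wild type. A gene was called where the adjusted p of limma, a linear model with variances shared across genes, was under 0.05.

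Cathepsins are proteases that work mainly in the acid interior of endosomes and lysosomes, where they degrade proteins brought in from outside the cell or from its own cytoplasm. Most are cysteine proteases, made as inactive proenzymes, delivered through the mannose 6-phosphate pathway and held in check by cystatins. In B cells, dendritic cells and macrophages several of them trim the invariant chain and antigens for MHC class II molecules. They are abundant in macrophages, so their transcripts are also read as a myeloid feature.

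One array, wild-type replicate 3, was unlike the rest, and this touched nearly every cathepsin value. Its correlations with the other arrays were 0.70 to 0.82, and its control probe sets for Actb gave 1.69 more signal near the 3' end than mid-transcript, where the other 5 arrays gave 0.16 to 0.26 more. In the 4274 genes of highest mean expression, a class that holds every cathepsin except Ctsc, it lay below the mean of wild-type replicates 1 and 2 by a median difference of -1.36 (quartiles -2.19 and -0.60). Spike-in controls split the arrays across genotypes, with means of 9.99 to 10.78 on HDAC7-deficient replicates 2 and 3 and wild-type replicate 3, and 8.64 to 9.17 on the other 3 arrays. Hdac7 itself was 9.95, 9.54 and 9.27 on the arrays labelled HDAC7 deficient and 9.06, 9.48 and 7.31 in wild type, with a change of 0.97 ± 0.59, or 0.31 ± 0.23 without wild-type replicate 3. The targeted gene was thus higher, without passing the test, where the labels say HDAC7 deficient. Whether its probe set lies within the deleted exons is not known here, so it gives no check of the labels, and directions below are those of the arrays so labelled. Of the pro-B markers listed, 15 of 18 were measured, all above the median gene, among them the surrogate light chain gene Vpreb1 (11.48, 10.73 and 10.86 in HDAC7 deficient, 11.53, 11.40 and 9.97 in wild type). Their direction turned with wild-type replicate 3: 10 of the 15 had a change above 0 with 6 arrays (median 0.13) and 3 of the 15 without it (median -0.26), and none passed the limma threshold either way. Their mean level was 10.30, 9.56 and 9.49 in HDAC7-deficient cells, against 9.86, 10.11 and 8.75 in wild-type cells. This mean, like Vpreb1 and Cd79a, was thus lower on the 3 arrays of high spike-in signal than on the other 3, in both genotypes. Without wild-type replicate 3 the high side holds HDAC7-deficient arrays only, so genotype and that division were not separated for these markers. The B lineage factor gene Pax5 had a change of 0.82 ± 0.57 and the adaptor gene Blnk 0.66 ± 0.47, or 0.24 and 0.19 without that array. Cd79a, a B cell receptor subunit gene, had 0.04 ± 0.50, or -0.46 ± 0.24 without it.

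All 8 cathepsin genes had a higher mean in HDAC7-deficient than in wild-type cells, with changes of 0.18 (Ctss, 1.14-fold) to 1.53 (Ctsh, 2.88-fold) and a median of 1.10, but none passed the test. A change above 0 was found in 48% of all genes. No gene of the 17097 passed in this limma fit (0%). An unadjusted p under 0.05 was reached by 602 higher genes (3.52%), none of them a cathepsin, and by 1563 lower genes (9.14%). All 8 genes were lowest on wild-type replicate 3. With that array left out all 8 changes were still above 0, against 43.2% of all genes, but their median was 0.13 and the largest was 0.28 (Ctsl, 1.21-fold). Over all genes the median change was -0.03 with 6 arrays and -0.05 without wild-type replicate 3, and in the 4274 brightest genes it was 0.56 and 0.06. A change above 0 was found in 89.6% of those 4274 genes with 6 arrays and in 59.9% without that array.

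In 6 of the 8 genes (75%) the 3 HDAC7-deficient arrays all lay above the 3 wild-type arrays. That separation upward was seen in 9.45% of all genes and in 17% of the 4274 brightest genes. The opposite separation was seen in 16.8% of all genes. The genes were Ctsa, Ctsb, Ctsh, Ctsl, Ctss and Ctsz, and Ctsc and Ctsd overlapped. The same 6 separated without wild-type replicate 3, as they had to, since leaving out an array cannot make separate groups overlap. The shares were then 11.8% of all genes and 18.6% of the 4274 brightest, with 19% of all genes separated downward. The margins were narrow, as the values below show, and none of the genes passed the limma threshold with or without that array.

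**Figure D1:**
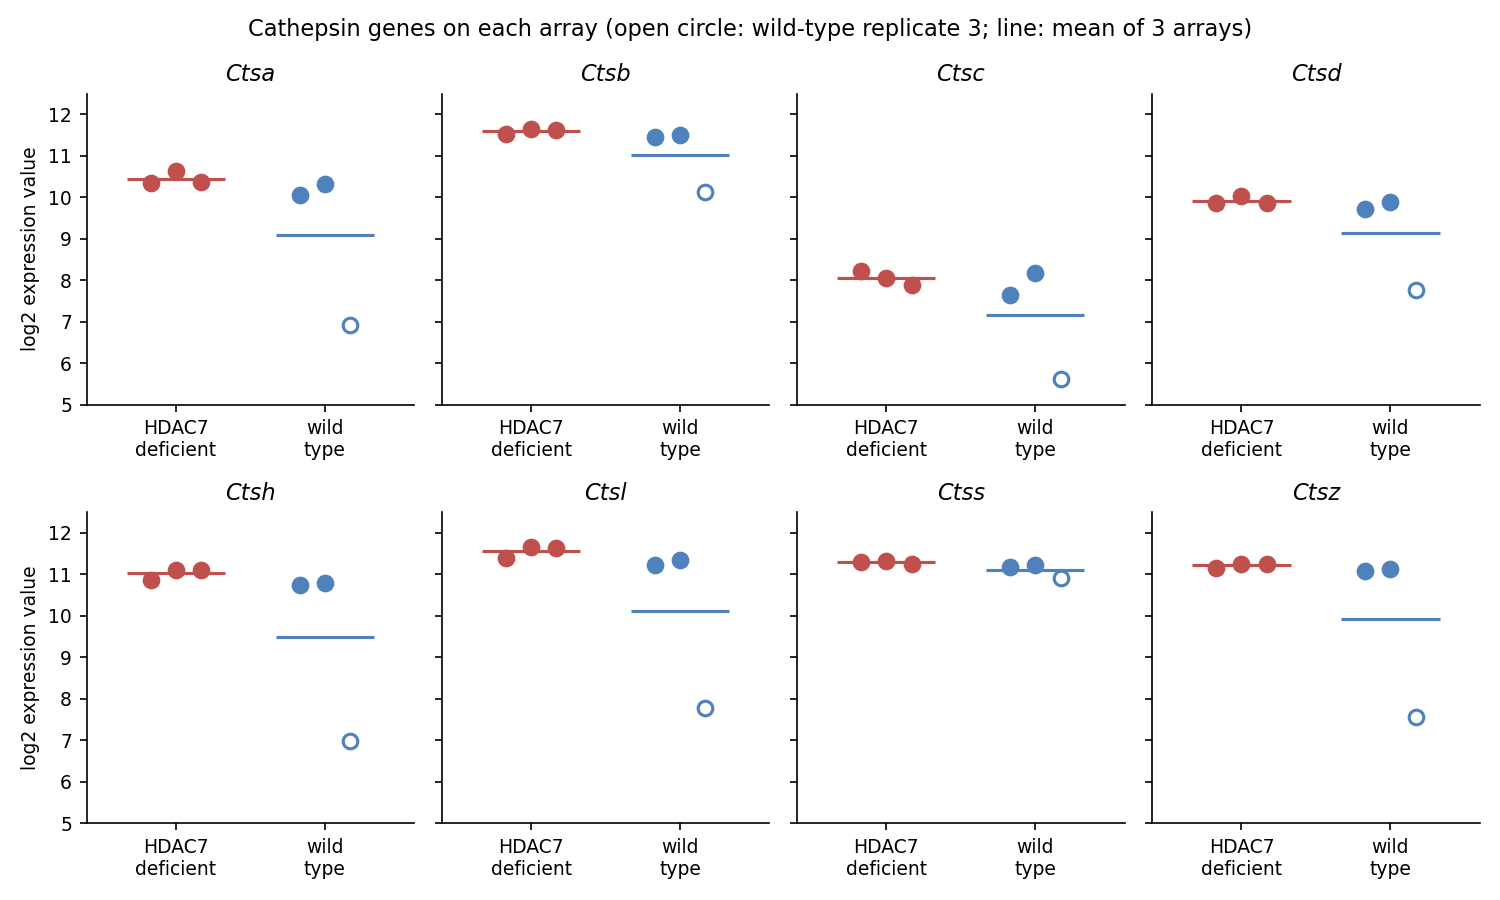
Log2 expression values of the 8 cathepsin genes, 1 panel a gene, with HDAC7-deficient arrays on the left and wild-type arrays on the right. Points are arrays, lines are means of 3 arrays, and the open circle is wild-type replicate 3, which is the lowest point in every panel and lies close to the others for Ctss alone. Heights in different panels come from different probes and are not comparable.

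Among the cysteine proteases, Ctsb, which encodes cathepsin B, an enzyme that cuts within proteins and also removes dipeptides from their ends, was 11.52, 11.65 and 11.62 in HDAC7-deficient cells, against 11.44, 11.49 and 10.12 in wild-type cells. The groups did not overlap, but the lowest HDAC7-deficient array lay close to wild-type replicate 2. The change was 0.58 ± 0.42 (SE; limma adjusted p = 0.433), and 0.13 ± 0.07 without wild-type replicate 3 (adjusted p = 0.413).

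Ctsl encodes cathepsin L, an endopeptidase that trims the invariant chain in thymic epithelium. It was 11.39, 11.66 and 11.62 in HDAC7-deficient cells, against 11.22, 11.34 and 7.78 in wild-type cells. The groups were separate, and wild-type replicate 3 differed from the mean of the other wild-type arrays by -3.50. The means were 11.56 ± 0.15 and 10.11 ± 2.02 (SD, n = 3 each), with a change of 1.45 ± 0.92 (limma adjusted p = 0.406). Without wild-type replicate 3 the change was 0.28 ± 0.10 (adjusted p = 0.294), with a 95% interval of 0.06 to 0.50, and its unadjusted p was 0.0197.

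Ctss encodes cathepsin S, the main invariant chain protease of B cells and dendritic cells. It was 11.29, 11.31 and 11.25 in HDAC7-deficient cells, against 11.18, 11.21 and 10.92 in wild-type cells. It was the steadiest of the 8 genes, and wild-type replicate 3 differed from the mean of the other wild-type arrays by -0.28, where the other 7 genes had -1.35 (Ctsb) to -3.78 (Ctsh). The groups did not overlap. The change was 0.18 ± 0.26 (limma adjusted p = 0.634) with a 95% interval of -0.43 to 0.80, and 0.09 ± 0.07 without wild-type replicate 3, with an interval of -0.07 to 0.25.

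Ctsh encodes cathepsin H, an aminopeptidase that also has endopeptidase activity. It was 10.86, 11.11 and 11.10 in HDAC7-deficient cells, against 10.73, 10.78 and 6.98 in wild-type cells. All 3 HDAC7-deficient arrays were higher than every wild-type array. The change was 1.53 ± 0.99 (limma adjusted p = 0.409), with a 95% interval of -0.82 to 3.88. Without wild-type replicate 3 it was 0.27 ± 0.10 (adjusted p = 0.331), with an interval of 0.03 to 0.51. Ctsh and Ctsl were then the only cathepsins at an unadjusted p under 0.05, a level reached upward by 5.19% and downward by 8.84% of all genes in that fit. That fit does not separate genotype from the spike-in division, whose high side then holds HDAC7-deficient arrays only.

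Ctsz encodes cathepsin Z, also called X, a carboxypeptidase of myeloid and other immune cells. Its main probe set, 1417869_PM_s_at, has a suffix that marks probes that can match more than 1 transcript. It was 11.14, 11.25 and 11.25 in HDAC7-deficient cells, against 11.08, 11.12 and 7.55 in wild-type cells. The groups were separate by a margin smaller than the spread within the HDAC7-deficient group. The change was 1.30 ± 0.93 (limma adjusted p = 0.431), and 0.11 ± 0.08 without wild-type replicate 3 (adjusted p = 0.524).

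Ctsc encodes cathepsin C, or dipeptidyl peptidase I, which activates the granule serine proteases of neutrophils, mast cells and cytotoxic lymphocytes. Its main probe set was 8.21, 8.05 and 7.88 in HDAC7-deficient cells, against 7.65, 8.17 and 5.63 in wild-type cells. The groups overlapped, because wild-type replicate 2 lay above HDAC7-deficient replicates 2 and 3. The change was 0.90 ± 0.64 (limma adjusted p = 0.428), and 0.13 ± 0.24 without wild-type replicate 3 (adjusted p = 0.827).

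Outside the cysteine protease family, Ctsd, which encodes the aspartic protease cathepsin D, was 9.87, 10.03 and 9.85 in HDAC7-deficient cells, against 9.72, 9.89 and 7.77 in wild-type cells. Its groups overlapped, and its change was 0.79 ± 0.58 (limma adjusted p = 0.436), or 0.11 ± 0.14 without wild-type replicate 3. Ctsa encodes protective protein/cathepsin A, a serine carboxypeptidase that stabilises beta-galactosidase and neuraminidase in the lysosome. It was 10.34, 10.62 and 10.38 in HDAC7-deficient cells, against 10.06, 10.32 and 6.91 in wild-type cells. Its groups were separate, with HDAC7-deficient replicate 1 just above wild-type replicate 2, and its change was 1.35 ± 0.88 (limma adjusted p = 0.409), or 0.26 ± 0.14 without wild-type replicate 3 (adjusted p = 0.433).

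**Figure D2:**
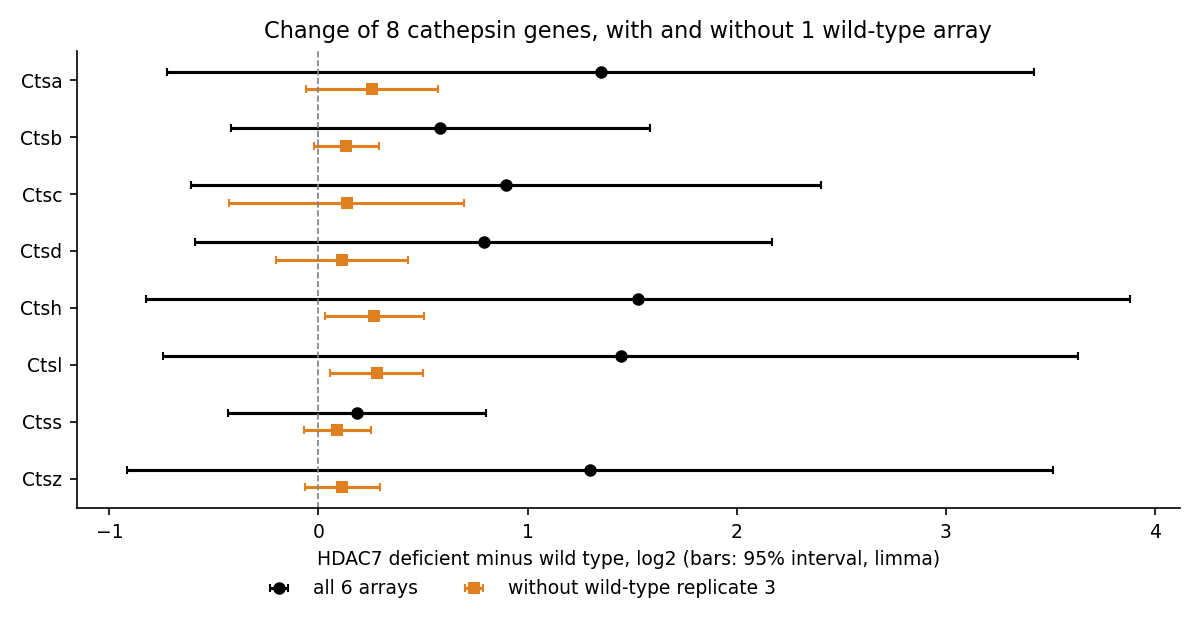
Changes of the 8 cathepsin genes, HDAC7 deficient minus wild type on the log2 scale, with all 6 arrays (black circles) and without wild-type replicate 3 (orange squares). Bars are 95% intervals from limma. Every interval with 6 arrays spans 0, and without that array the intervals of Ctsh and Ctsl lie above 0. The high side of the spike-in division then holds HDAC7-deficient arrays only, so genotype and that division are not separated.

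Within the sides of the spike-in division the changes differed in size. On the low side, where HDAC7-deficient replicate 1 stands against wild-type replicates 1 and 2, the changes were 0.04 (Ctsz) to 0.30 (Ctsc). On the high side, where HDAC7-deficient replicates 2 and 3 stand against wild-type replicate 3 alone, they were 0.37 (Ctss) to 4.13 (Ctsh). All 8 were above 0 on both sides. That difference in size rests on wild-type replicate 3, the sole wild-type array of the high side. Changes given without that array therefore do not separate genotype from the division. On the low side Ctsh had 0.10 and Ctsl 0.11.

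The probe sets of a gene did not all tell the same story. All 17 had a change above 0, with and without wild-type replicate 3, against 48% and 48.4% of all 45037 probe sets. Among genes this share ran from 13.6% of the dimmest 4275 to 89.6% of the brightest 4274, or 26% to 59.9% without that array. Probe sets were not divided by brightness, so the shares here are not matched for it. In 10 of the 17 the groups did not overlap with 6 arrays, against 11.5% of all probe sets in that direction, and 2 were higher at an unadjusted p under 0.05, against 5.97% higher and 8.11% lower. Separation downward was seen in 14.9%. Without wild-type replicate 3 10 did not overlap, a number that could not fall when an array was left out, against 16.2% upward and 16.3% downward. At that p were 4, against 7.88% upward and 7.34% downward. No probe set passed the adjusted threshold in either limma fit over probe sets (0% of 45037). Probe sets of 1 gene share their RNA and are not separate evidence.

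Ctsc showed the widest disagreement. Its probe set 1437939_PM_s_at, whose suffix marks probes that can match more than 1 transcript, was 6.47, 8.03 and 7.82 in HDAC7-deficient cells, against 5.41, 6.004 and 5.13 in wild-type cells. The groups were well apart, and HDAC7-deficient replicates 2 and 3 were much higher than replicate 1. The change was 1.93 ± 0.46, below only the 2.04 of a Ctsz probe set among the 17, with an unadjusted p of 0.00424 and a limma adjusted p of 0.301. Without wild-type replicate 3 it was 1.74 ± 0.47, the largest of the 17, with an adjusted p of 0.183. Its remaining probe set, 1446834_PM_at, was 6.34, 7.03 and 7.08 in HDAC7-deficient cells, against 6.34, 6.33 and 6.94 in wild-type cells, and the groups overlapped (change 0.27 ± 0.31, limma adjusted p = 0.573). The main probe set, with 0.13 without wild-type replicate 3, did not share the large difference of the s_at probe set.

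The 4 Ctsb probe sets differed mainly in how far wild-type replicate 3 lay below the other wild-type arrays. That difference was -1.35 for the main probe set, -4.15 for 1448732_PM_at, -2.69 for 1417492_PM_at and -1.48 for 1417491_PM_at. On the other 5 arrays 1448732_PM_at ran from 11.41 to 11.63, and its change without wild-type replicate 3 was 0.07 ± 0.08. Probe set 1417491_PM_at was 8.21, 8.78 and 8.23 in HDAC7-deficient cells, against 7.71, 7.88 and 6.32 in wild-type cells. It did not overlap, with a change of 1.10 ± 0.46 (limma adjusted p = 0.354), and 0.61 ± 0.25 without wild-type replicate 3 (adjusted p = 0.309).

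For Ctsl the dimmer probe set 1457724_PM_at was 8.24, 8.10 and 7.78 in HDAC7-deficient cells, against 7.53, 7.58 and 7.64 in wild-type cells. Here wild-type replicate 3 did not stand apart, and the groups were separate. The change was 0.46 ± 0.26 with 6 arrays (limma adjusted p = 0.374) and 0.49 ± 0.23 without that array (adjusted p = 0.360). The other 2 Ctsz probe sets differed on wild-type replicate 3 from the other wild-type arrays by -3.96 and -5.27, and both overlapped between groups. The dimmer Ctsa probe set overlapped as well (6.12, 7.09 and 6.72 in HDAC7-deficient cells, 6.21, 6.44 and 5.99 in wild-type cells).

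**Figure D3:**
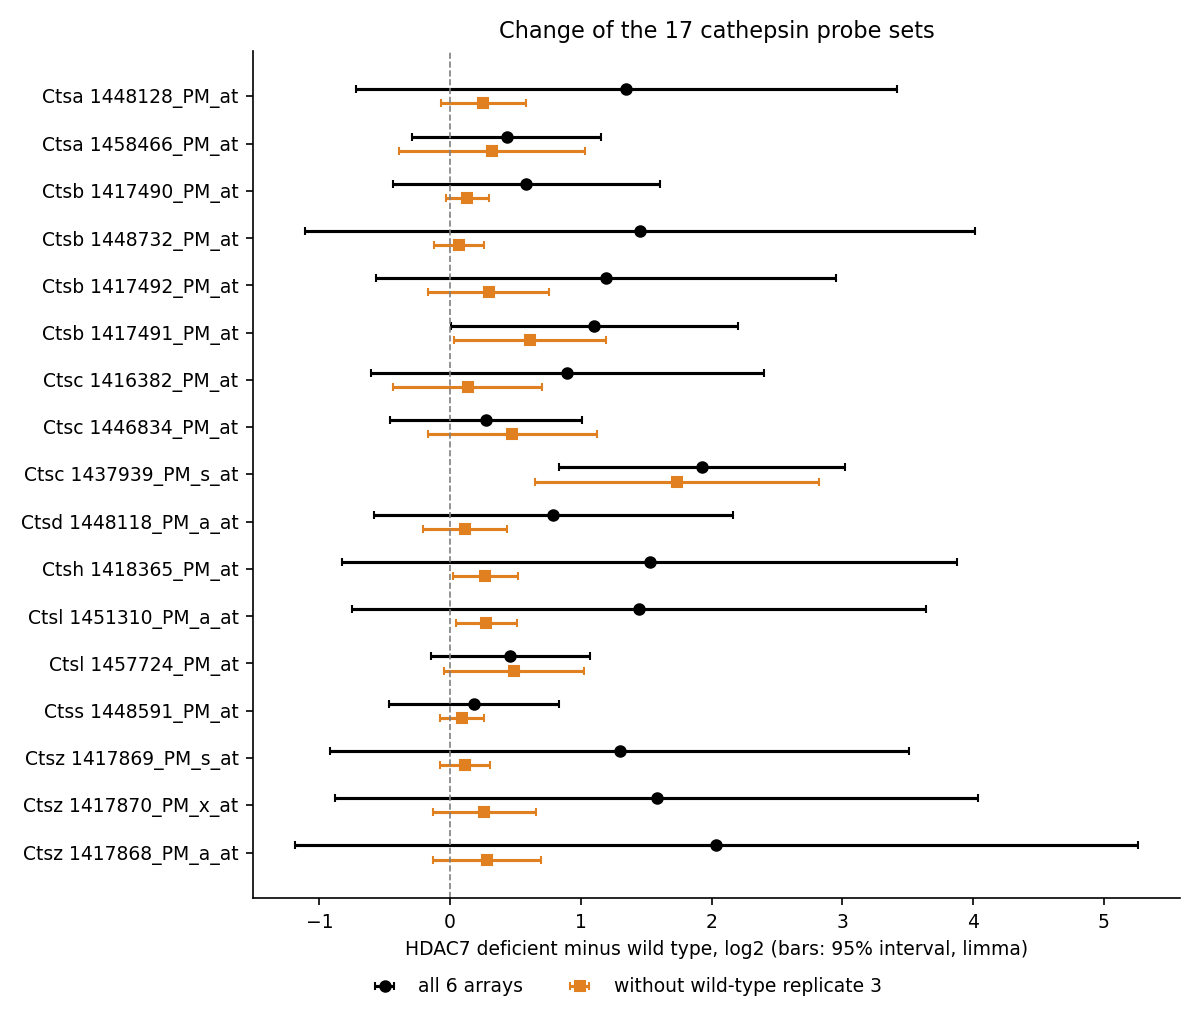
Changes of the 17 cathepsin probe sets, HDAC7 deficient minus wild type on the log2 scale, with 95% limma intervals, for all 6 arrays (black) and without wild-type replicate 3 (orange). The s_at probe set of Ctsc keeps a change of 1.74 without that array, where the others lie between 0.07 and 0.61.

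The cathepsin genes varied together from array to array. Over the 28 pairs of genes the median Pearson r was 0.996 with 6 arrays, where wild-type replicate 3 sets most of the variance, and 0.778 with the other 5, with all 28 above 0 in both cases. Without that array the lowest r was 0.104, between Ctsc and Ctsh, and the highest 0.999, between Ctsb and Ctsl. These values are descriptions over arrays that share normalization and signal range. Such likeness was common: with 6 arrays 755 of 8540 genes above the median gene had an r above 0.99 to the mean cathepsin profile. The closest were Ldb1, Sec24c, Ubl5, Itm2b and Cnnm3. Without wild-type replicate 3 there were 65 such genes, and the closest were Plek, a phosphoprotein of platelets and leukocytes, Rnf31, Phc1, Gtf2ird2 and Pdlim7.

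Promoter sequence was set beside this shared variation, because many lysosomal genes carry a CACGTG element bound by TFEB, the transcription factor that drives lysosome formation. The RefSeq promoter table (GRCm38.p6) held 7 windows for 6 of the 8 genes, and the 250 bases before each start site were searched on both strands for CACGTG and for TCACGTG, which contains it. CACGTG lay in 3 of the 7 windows, from 3 of the 6 genes (Ctsa, Ctsd and Ctsl), against 6.02% of all 32851 windows. TCACGTG lay in 2 of the 7 windows, from 2 genes (Ctsa and Ctsd), against 3.13% of all windows. The MEF2 consensus, the motif of the factors that recruit class IIa deacetylases, was in none of them, against 0.508% of all windows. A match describes these letters and does not show binding. The stretches that hold CACGTG are shown 5′ to 3′ on the strand of the gene, with the 6 letters in capitals, from chr2:164833713-164833772 (plus strand), chr7:142387893-142387952, chr7:142388018-142388077 and chr13:64370711-64370770 (minus strand).
Ctsa, motif starting 12 bases before the start site: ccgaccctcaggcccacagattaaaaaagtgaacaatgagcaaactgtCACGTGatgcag
Ctsd, motif starting 98 bases before: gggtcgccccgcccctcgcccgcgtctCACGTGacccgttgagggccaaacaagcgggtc
Ctsd, motif starting 245 bases before: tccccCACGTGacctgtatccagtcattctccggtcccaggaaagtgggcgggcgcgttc
Ctsl, motif starting 236 bases before: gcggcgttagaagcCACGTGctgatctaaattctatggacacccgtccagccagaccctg
Without wild-type replicate 3 the changes of these carriers, Ctsa, Ctsd and Ctsl, were 0.26, 0.11 and 0.28, and those of the other 5 genes ran from 0.09 to 0.27.

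The rest of the lysosome was described through lists of other genes, and no member of any passed the limma threshold with or without wild-type replicate 3. Of 38 measured lysosomal hydrolases and cofactors 35 were higher in HDAC7-deficient cells, with a median change of 0.54, or 0.15 without that array. Most members of this list and of the membrane, proton pump and sorting lists lay above the median gene (34, 21, 13 and 19). A change above 0 was common there, in 89.6% of the brightest 4274 genes and 66.1% of the 4274 below those. Without that array those shares were 59.9% and 58.8%, and 31, 22, 12 and 16 list members were higher. Gla, which encodes alpha-galactosidase A, was 7.01, 8.36 and 8.68 in HDAC7-deficient cells, against 6.15, 6.67 and 5.75 in wild-type cells. Its groups were separate, with a change of 1.82 ± 0.49 (limma adjusted p = 0.377) and 1.602 ± 0.47 without wild-type replicate 3 (adjusted p = 0.243). Prcp, a lysosomal carboxypeptidase gene, had a change of 0.43 ± 0.15.

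Of 24 lysosomal membrane protein genes 20 were higher (median 0.72, or 0.19 without that array). Slc15a3, a peptide and histidine transporter gene, had a change of 1.06 ± 0.43, and Cln3, mutated in juvenile Batten disease, one of 1.19 ± 0.51. They were 0.70 ± 0.33 and 0.68 ± 0.26 without wild-type replicate 3. Of 14 proton pump subunits 12 were higher (median 0.88, or 0.07). The subunit gene Atp6v0a1 was 8.23, 8.65 and 8.53 in HDAC7-deficient cells, against 7.71, 7.70 and 6.58 in wild-type cells. Its groups did not overlap, with a change of 1.14 ± 0.39 (limma adjusted p = 0.377) and 0.77 ± 0.22 without wild-type replicate 3, while Atp6v1h had 0.90 ± 0.49 and, without that array, 0.38 ± 0.30. Of 21 genes of lysosomal sorting and biogenesis 19 were higher (median 0.59, or 0.18), with the sorting adaptor Gga3 at 0.90 ± 0.33 and the tethering subunit Vps11 at 0.97 ± 0.49, or 0.61 ± 0.24 and 0.44 ± 0.29 without wild-type replicate 3. The cathepsin median of 1.10 with 6 arrays was above those of these 4 lists. Without wild-type replicate 3 it was 0.13, within their range of 0.07 to 0.19.

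The other cathepsins and the inhibitors, most of them dim, had medians below 0. Of 15 other cathepsin genes, most of them dim placental relatives of Ctsl, 11 were lower in HDAC7-deficient cells, with a median change of -0.19, or -0.08 without wild-type replicate 3. The placental genes Ctsll3 and Cts3 had changes of -0.59 ± 0.30 and -0.41 ± 0.23, or -0.29 ± 0.19 and -0.19 ± 0.14 without that array. Only 3 of the 15, Ctse, Ctsg and Ctsw, lay above the median gene, and these are named for that level: their changes were -0.37, 0.73 and 1.59, or -1.74, -0.42 and 0.34 without wild-type replicate 3. Of 14 measured inhibitor genes 9 were lower, with a median of -0.18, or -0.14. Fetub, a fetuin of the cystatin superfamily, had -0.40 ± 0.19 and the stefin gene Csta2 -0.59 ± 0.31, or -0.22 ± 0.13 and -0.30 ± 0.22 without wild-type replicate 3. Dim genes lay higher on wild-type replicate 3 as a class, with a median of 0.51 above the other wild-type arrays in the 4275 genes of lowest mean expression. In those genes 13.6% had a change above 0, and in the next 4274 genes 22.9%, or 26% and 28% without that array, so members below 0 were common at that brightness.

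**Figure D4:**
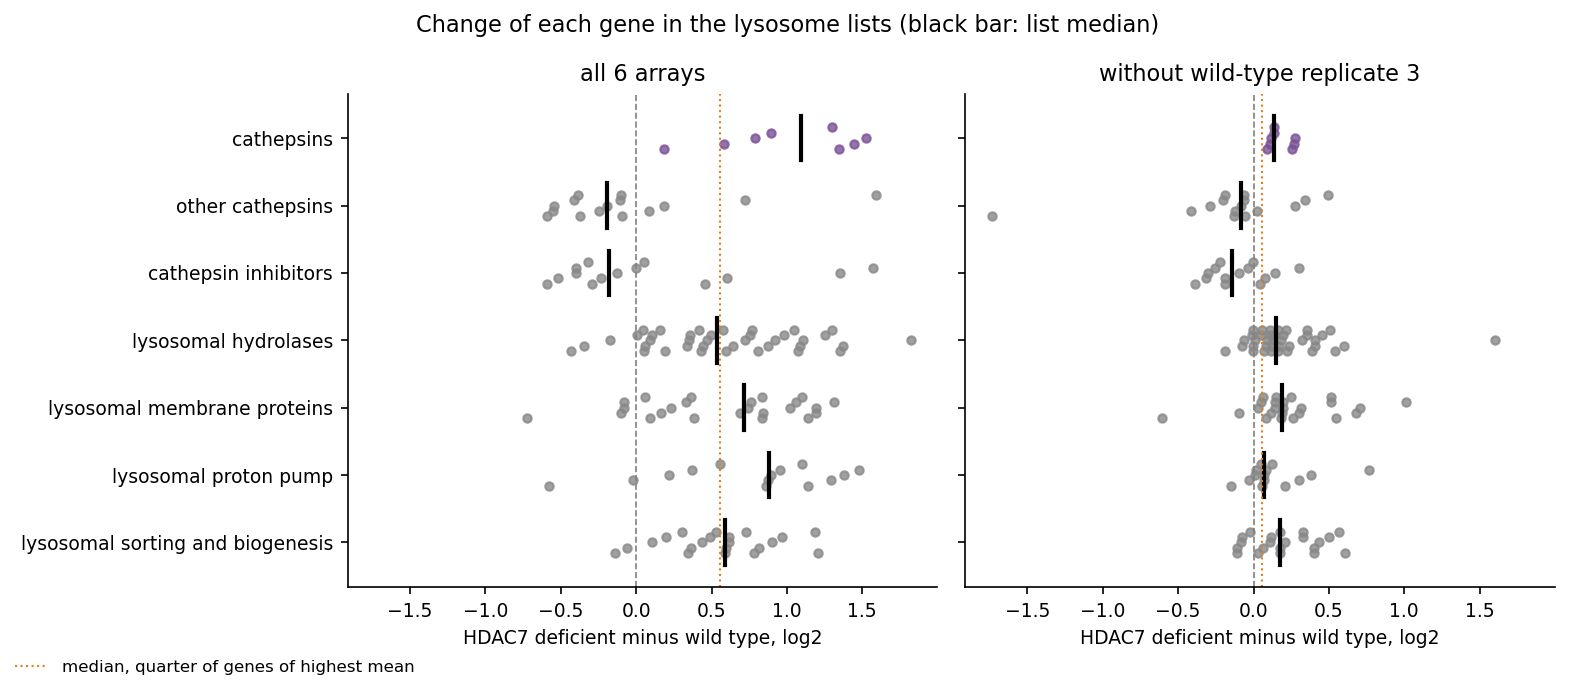
Changes of single genes in the cathepsin list and the 6 other lysosome lists, HDAC7 deficient minus wild type on the log2 scale, with all 6 arrays on the left and without wild-type replicate 3 on the right. Points are genes, black bars list medians, and the dotted line is the median of the 4274 genes of highest mean, 0.56 on the left and 0.06 on the right. The cathepsin median lies at 1.10 on the left and 0.13 on the right.

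Markers of other cells that the sort could hold were read beside the cathepsins. In bulk RNA, more cells of a type and more RNA in each cell cannot be told apart. No member of any marker list passed the limma threshold. Of 17 measured monocyte and macrophage markers 10 had a change above 0, with a median of 0.11, or 13 and 0.22 without wild-type replicate 3. Their summed linear signal, which bright members dominate, was 6240 to 7732 in HDAC7-deficient cells and 5435 to 5996 in wild-type cells. Lysozyme 2 (Lyz2) was 10.75, 11.31 and 11.23 in HDAC7-deficient cells, against 10.90, 10.77 and 10.96 in wild-type cells, so the groups overlapped and wild-type replicate 3 was not low. The macrophage receptor gene Csf1r was 6.71, 7.18 and 6.85, against 6.96, 6.95 and 6.77 in wild-type cells. The genes Adgre1 and Cd14 were between 5.50 and 6.38 in HDAC7-deficient cells and between 5.51 and 7.27 in wild-type cells, near the array medians of 5.83 to 6.15. The receptor genes Itgam and Clec7a, of myeloid cells, had changes of 1.51 ± 0.42 and 1.35 ± 0.35 (limma adjusted p = 0.377 each), and 1.31 ± 0.39 and 1.28 ± 0.35 without wild-type replicate 3. In both genes the HDAC7-deficient arrays all lay above the wild-type arrays. Other members went the other way: Mertk, a receptor for dying cells, had -0.91 ± 0.41 with all HDAC7-deficient arrays below the wild-type arrays, and the scavenger receptor gene Msr1 -0.78 ± 0.49, or -0.42 ± 0.19 and -0.27 ± 0.30 without wild-type replicate 3. Both were named after their values were seen. No array value is 0 on this scale, so a marker at array background has no true zero here.

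All 11 measured markers of plasmacytoid dendritic cells, which carry B220, were higher in HDAC7-deficient cells, with a median change of 1.27, or 0.40 without wild-type replicate 3. All 11 lay above the median gene, where a change above 0 was common: 89.6% of the brightest 4274 genes and 66.1% of the 4274 below those, or 59.9% and 58.8% without that array. Their summed linear signal was 11124, 15663 and 14023 in HDAC7-deficient cells, against 9714, 11677 and 2446 in wild-type cells. Klk1, listed for these cells, was 7.96, 9.25 and 9.31 in HDAC7-deficient cells, against 6.88, 8.09 and 5.35 in wild-type cells, with overlapping groups and a change of 2.06 ± 0.73 (limma adjusted p = 0.377). Tlr7, a receptor for single-stranded RNA, had 1.49 ± 0.48, and 1.47 ± 0.48 without wild-type replicate 3. Of 12 neutrophil markers, all above the median gene, 10 had a change above 0, with a median of 0.96, or 9 and 0.36 without wild-type replicate 3. Their summed signal was 18426, 27375 and 27693 in HDAC7-deficient cells, against 22092, 18491 and 13995 in wild-type cells. HDAC7-deficient replicate 1 thus lay below wild-type replicates 1 and 2. Without wild-type replicate 3, genotype and the spike-in division were not separated for these markers or for the plasmacytoid ones. The collagenase gene Mmp8 had 1.45 ± 0.41 with separate groups, and the antimicrobial peptide gene Camp 1.18 ± 0.55, or 1.32 ± 0.38 and 0.62 ± 0.24 without that array. S100a8 had -0.06 ± 0.37 and the myeloperoxidase gene Mpo 0.50 ± 0.55, or 0.25 ± 0.15 and -0.14 ± 0.10.

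The remaining marker lists were mixed. Of 8 conventional dendritic cell markers 4 had a change above 0 and 4 below, with a median of 0.01, or -0.14 without wild-type replicate 3. The transcription factor gene Zbtb46 had -0.62 ± 0.23 and the integrin gene Itgax 1.55 ± 0.73, or -0.44 ± 0.19 and 0.69 ± 0.29, and each separated the groups. Of 14 NK and T cell markers, 13 of them above the median gene, 12 had a change above 0 (median 0.66), or 10 (median 0.26) without that array. The co-receptor gene Cd8a had 1.56 ± 0.78 and Klrk1, the NKG2D receptor gene, 0.74 ± 0.39, or 0.70 ± 0.40 and 0.42 ± 0.26. Of 8 erythroid markers 5 had a change above 0 (median 0.16, or 0.12). The transferrin receptor gene Tfrc had 0.97 ± 0.55 and the carbonic anhydrase gene Car1 0.89 ± 0.79, or 0.33 ± 0.11 and 1.42 ± 0.71. The summed signal of the 8 cathepsins was 14765, 16548 and 15879 in HDAC7-deficient cells, against 13470, 14340 and 3962 in wild-type cells. The part of these other cells in the cathepsin values was not tested.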

How the data were processed

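Total RNA of sorted pro-B cells was amplified by whole transcriptome amplification and hybridised to Affymetrix perfect-match mouse arrays, as the labels' protocols state. For each probe set and array the authors deposited a log2 value. How it was summarised and normalized is not given in the sources used here. The scale was inferred from the values themselves. Of 45141 probe sets 104 controls were set aside, 28898 had 1 gene symbol in the platform annotation, 551 several and 15588 none. Symbols of 28689 were updated by Entrez number through RefSeq (GRCm38.p6), and 209 kept the older name.

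Genotypes were compared by linear models in limma 3.58.1 under R 4.3.3 (intensity trend, two-sided, Benjamini-Hochberg over all 17097 genes, or all 45037 probe sets; no filter on dim probe sets). The fit was also run on simulated arrays with known changes. Their spread was taken without wild-type replicate 3, so they do not test the fit with an outlying array. Where nothing shows separate animals, p-values measure only the spread between arrays, whose number limits the precision. The members and lists were chosen with earlier results of these data known. The naming rule took all cathepsins, the 2 members of each other list with the smallest unadjusted p, set markers, and the 5 genes most like the mean cathepsin profile. Figures were drawn with matplotlib 3.10.9. Alternatives were single arrays left out, the replicate number or spike-in division as a block, quantile or median normalization, filters on dim genes, variance models and probe set choice. Some listed genes were not analysed here.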

Additional observations from a re-analysis of the deposited data

How the results depend on the processing

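All 8 cathepsin changes kept their direction in every alternative, and none passed the limma threshold except with array weights. In some alternatives the direction could not turn. The replicate block, the filters on dim genes and the fit without an intensity trend leave the change itself unaltered. Probe set choice cannot move Ctsd, Ctsh and Ctss, which have 1 probe set each. Leaving out 1 array gave medians of 0.13 (without wild-type replicate 3) to 1.65 (without wild-type replicate 2). It gave 6 to 8 genes whose groups did not overlap, a count that cannot fall below 6 when an array is left out. Spike-in division as a block gave a median of 1.59 and 5 cathepsins at an unadjusted p under 0.05. In that limma fit 2678 higher and 4610 lower genes of 17097 reached this level, against 602 and 1563 in the main fit. The median was 0.10 with the block and wild-type replicate 3 left out as well. Quantile normalization gave 0.93 and median centring 1.23, where the median of all genes was 0.10. The mean over probe sets gave 5 genes without overlap, as did the probe set of largest interquartile range, where Ctsc had 1.93.

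Array weights called 4 cathepsins, Ctsa (0.47), Ctsb (0.19), Ctsc (0.39) and Ctsl (0.39), among 10932 genes called in all, against 0 without weights. That estimate stopped before it converged, with a weight of 40506 on wild-type replicate 1 and 0.015 to 0.892 elsewhere. It called 8 of 14 inhibitors, 25 of 38 hydrolases and 16 of 24 membrane proteins. Of the other lists it called 4 of 14 pump subunits, 13 of 21 sorting genes and 12 of 15 other cathepsins. The share to set beside each of these counts is 10932 of all 17097 genes. The gene-by-gene method, chosen after seeing the data, called 8449 of the 17097 genes, and 0 of these were cathepsins. In those lists, in the same order, it called 6, 19, 9, 4, 9 and 8. The inhibitor median was 0.0096 with quantile normalization, 0.23 over the 12823 genes left after the dimmest were removed and 0.60 over the brightest 8549, where fewer dim members are left. The median of the other cathepsins was then 0.73. That of the membrane proteins was 0.0767 with the division as a block and wild-type replicate 3 left out; the cause was not tested.

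The replicate numbers did not pair the arrays: deviations of same-numbered arrays correlated at 0.096, 0.21 and 0.48, and 3 of 6 arrays correlated best with their own number. With the replicate block the cathepsin median was 1.10, 0 cathepsins and 1 gene in all passed, against 0 without it. The block with the division and without wild-type replicate 3 called 4 genes, none of them a cathepsin.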

Other observations

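Ctse, which encodes the aspartic protease cathepsin E of endosomes, was singled out after its values were seen. It was 10.59, 7.71 and 7.28 in HDAC7-deficient replicates 1, 2 and 3, against 10.43, 10.10 and 6.17 in wild-type replicates 1, 2 and 3. The 3 arrays of high spike-in signal were thus all lower than the other 3, in both genotypes, and the change between genotypes was -0.37 ± 1.33 (limma adjusted p = 0.853), or -1.74 ± 0.83 without wild-type replicate 3 (adjusted p = 0.393). The recombinase gene Rag1 had 10.14, 8.38 and 8.14 in HDAC7-deficient cells and 9.20, 9.09 and 7.59 in wild-type cells, again lower on those 3 arrays. Car1, an erythroid carbonic anhydrase gene, ran the other way, with 5.19, 7.80 and 7.75 in HDAC7-deficient cells and 5.66, 5.32 and 7.07 in wild-type cells. By their main probe sets none of the 8 lysosomal cathepsins divided the arrays in either of these ways. Wild-type replicate 3 was their lowest array, while HDAC7-deficient replicates 2 and 3 lay above wild-type replicate 1 in all 8. HDAC7-deficient replicate 2 was the highest in 6 of the 8. The Ctsc probe set 1446834_PM_at did divide them as Car1 did, with 6.34, 7.03 and 7.08 in HDAC7-deficient cells and 6.34, 6.33 and 6.94 in wild-type cells.

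Ctsg and Ctsw, cathepsins of neutrophil granules and of cytotoxic lymphocytes, were the other bright members outside the lysosomal set. Ctsg was 10.34, 10.11 and 10.12 in HDAC7-deficient cells, against 10.96, 10.26 and 7.18 in wild-type cells. It too was lower on the 3 arrays of high spike-in signal. Its change was 0.73 ± 0.92, and -0.42 ± 0.20 without wild-type replicate 3. Ctsw was 9.70, 10.19 and 9.76 in HDAC7-deficient cells, against 9.32, 9.75 and 5.79 in wild-type cells, with changes of 1.59 ± 0.995 and 0.34 ± 0.20.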
